A study of Mus musculus with 7 samples.

Results

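The enzymes that slide or evict nucleosomes and the enzymes that add or remove methyl groups on histone lysines were followed across 7 mouse embryos. Members were all probe sets of the array whose annotated symbol belongs to the Chd, Smarc, Baz1 and Baz2, Kdm1 to Kdm6, Kmt2, Setd, Nsd, Ehmt or Ezh genes, or is Atrx, Ino80, Suv39h1 or Suv39h2, with the Y-linked Kdm5d left out. This rule took 88 of the 22690 probe sets on the array, for 47 genes, and used no measured value. A further probe set that is annotated to several genes and names Ino80 among them was not taken.

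Diabetes-exposed embryos came from a streptozotocin-treated FVB dam, and control embryos from an untreated FVB dam, all taken at E10.5, when neural tube defects (NTD) are easily seen. There were 2 exposed embryos with NTD, 3 exposed embryos without NTD and 2 controls, each a whole embryo hybridised alone to an Affymetrix 430A 2.0 array. Exposed embryos came from 1 dam and controls from 1 dam, which means that litter and diabetes cannot be told apart here. Every p-value measures only the spread between littermates. The labels give no sex, and by the X-linked and Y-linked transcripts given below it nearly coincides with exposure. Probe sets of a gene that has several are lettered A, B and so on in the order of their identifiers on the array. Values are MAS5 signals on a linear scale, given below in the order of the embryo numbers in the labels. The array medians lay between 206 and 218, and the precision is limited by the number of arrays. Of the 88 probe sets, 75 from 44 genes reached the 40th percentile of the array (a signal of 131 to 146) on at least 2 arrays and were tested with limma together with all 14554 probe sets that did so. Those tested included 2 that needed the control arrays to pass (Nsd1 and Baz1b D, on 0 and 1 exposed arrays) and 2 that reached it on exposed arrays only (Baz2a A and 1 of Smarca2). The 13 others include every probe set of Kdm4c, Kmt2d and Setd7, and otherwise 1 or more probe sets each of Baz1b, Baz2a, Kdm5c, Setd1a, Setd4, Setdb1, Smarcal1, Smarcd1 and Smarcd2.

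Chromatin remodellers use ATP to move, space or exchange nucleosomes, and so set which DNA is open to transcription factors. SNF2 family motors include the BAF complex, which opens enhancers, the ISWI enzymes, which space nucleosomes, and the CHD proteins. Histone methyltransferases and demethylases write and erase marks that go with active genes (H3K4 and H3K36 methylation) or silent chromatin (H3K9 and H3K27 methylation). Many of these genes are needed in the embryo for neural and heart development.

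No member passed an adjusted p of 0.05 between exposed and control embryos in the limma fit. Over all probe sets tested, 0.0618% passed with a lower signal and 0.11% with a higher one. At an unadjusted p under 0.05, 14 member probe sets of 10 genes were lower in exposed embryos (18.7%, where 8.52% of all probe sets were), and 7 probe sets of 7 genes were higher (9.33%, where 7.63% were). The ratio of mean signals was beyond 1.5-fold lower for 11 members (14.7%, against 3.97% of all) and beyond 1.5-fold higher for 3 (4%, against 3.68%). All 5 exposed embryos lay below both controls for 17 members (22.7%, against 13.4% of all) and above both controls for 9 (12%, against 11.4%). The median log2 fold change was -0.050 for the 75 members and 0.00033 for all probe sets, with 43 members below 0 and 32 above. The counts of 14, 11 and 17 lower members each include Nsd1 and Baz1b D, which needed the control arrays to pass the filter. With the filter required on all 7 arrays, 55 members were tested. Of these, 14.5% were lower (against 8.57% of all) and 9.09% higher (against 7.82%) at an unadjusted p under 0.05. The higher share was thus near that of the array, while the lower share was above it. With only the brightest probe set of each gene this balance turned, to 11.4% lower and 15.9% higher and a median log2 fold change of 0.025. Without control 1 and without control 2, the median log2 fold change of members was -0.035 and -0.028, against -0.019 and 0.0024 over all probe sets. Each of these fits rests on a lone control, which is assumed to vary like the exposed embryos.

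**Figure D1:**
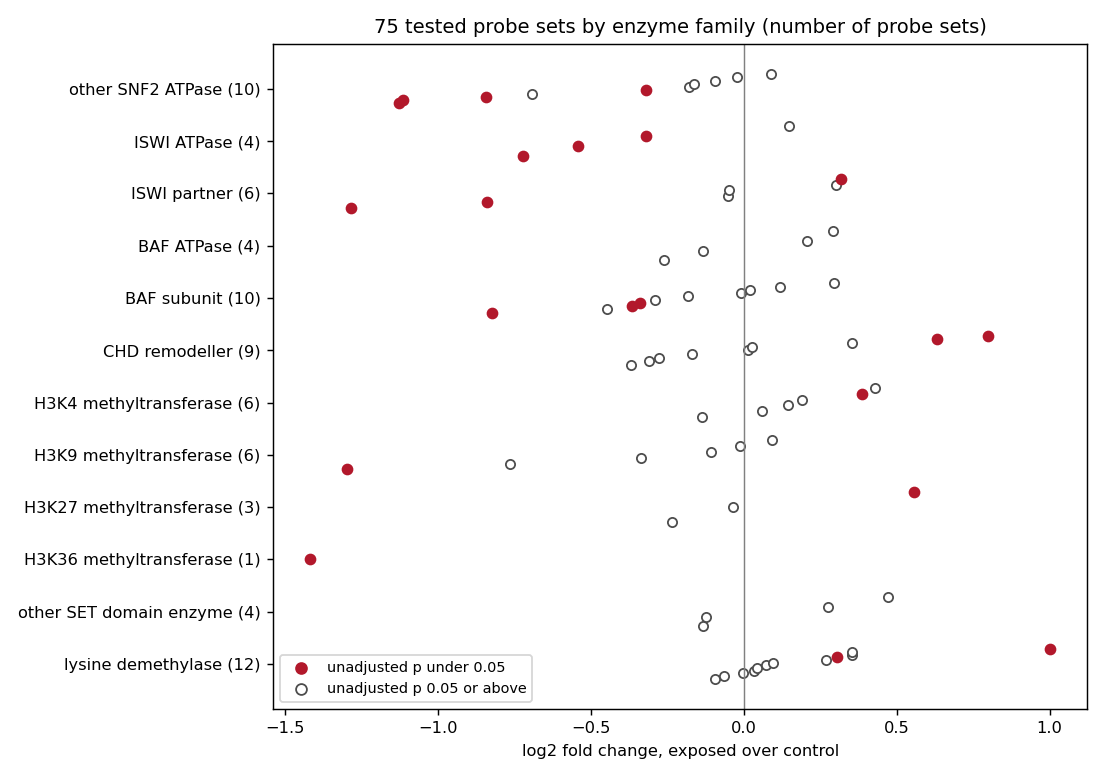
Log2 fold change of exposed over control embryos (x axis) for the 75 tested probe sets, in rows by enzyme family with the number of probe sets in brackets. Filled points have an unadjusted p under 0.05, and 14 of them lie below 0 and 7 above, with the farthest at -1.42 (Nsd1) and 1.00 (Kdm5c).

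The members farthest below the controls were probe sets of Atrx, Baz1b, Setdb1 and Nsd1. The study listed these genes from the same embryos, so that their direction here is not independent evidence. By quantitative PCR in embryos of other pregnancies, the study also reported lower Atrx and Baz1b. Setdb1 and Nsd1 are not among the genes it gives for that assay. Atrx, an X-linked SNF2 motor that deposits histone H3.3 at heterochromatin with Daxx, has 5 probe sets. Signals of Atrx D were 212 and 247 in exposed embryos with NTD, 177, 167 and 219 in exposed embryos without NTD and 447 and 430.1 in controls. Every exposed embryo lay below both controls (log2 fold change -1.12, SE 0.19, adjusted p = 0.0538), and the exact two-sided permutation p over the 7 embryos was 0.0476, the smallest that 21 splits allow. For Atrx B the signals were 168 and 123 in exposed embryos with NTD, 121, 178 and 112 in exposed embryos without NTD and 326 and 278 in controls (log2 fold change -1.13, SE 0.24, adjusted p = 0.08). For Atrx A they were 163 and 147 in exposed embryos with NTD, 165, 115 and 172 in exposed embryos without NTD and 265 and 277 in controls (log2 fold change -0.84, SE 0.21, adjusted p = 0.109). The groups did not overlap in any of these 3 probe sets of Atrx. The remaining pair of Atrx probe sets overlapped between the groups. Signals of Atrx C were 346 and 67.98 in exposed embryos with NTD, 118, 344 and 119 in exposed embryos without NTD and 162 and 186 in controls (log2 fold change -0.094, SE 0.57, adjusted p = 0.954), with 1 embryo of each exposed group above the controls and the others below. Signals of Atrx E were 193 and 64.9 in exposed embryos with NTD, 109, 137 and 115 in exposed embryos without NTD and 216 and 164 in controls (log2 fold change -0.69, SE 0.37, adjusted p = 0.382).

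Baz1b encodes WSTF, a bromodomain protein that pairs with the ISWI motor Smarca5 and lies in the region deleted in human Williams syndrome. Signals of Baz1b D were 124 and 84.9 in exposed embryos with NTD, 89.5, 137 and 76.99 in exposed embryos without NTD and 227 and 261 in controls (log2 fold change -1.28, SE 0.29, adjusted p = 0.09). This probe set passed the filter through the 2 controls and 1 exposed array, so that its selection favoured a lower exposed signal. Signals of Baz1b A were 592 and 506 in exposed embryos with NTD, 373, 327 and 412 in exposed embryos without NTD and 802 and 747 in controls (log2 fold change -0.84, SE 0.21, adjusted p = 0.109). All exposed embryos were below both controls in both probe sets. In the remaining tested probe set, Baz1b B, the signals were 2710.2 and 2874 in exposed embryos with NTD, 2946, 2634 and 3301 in exposed embryos without NTD and 2906 and 3066 in controls (log2 fold change -0.050, SE 0.12, adjusted p = 0.873), and there the groups overlapped. The dim Baz1b C had 24.8 and 25.99 in exposed embryos with NTD, 50.7, 31.7 and 24.1 in exposed embryos without NTD and 20.96 and 26.3 in controls, and was not tested.

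Setdb1, an H3K9 methyltransferase that silences retroelements and is required in the early mouse embryo, differed between its probe sets in the same way. Signals of Setdb1 A were 211 and 125 in exposed embryos with NTD, 88.8, 199 and 111 in exposed embryos without NTD and 340.3 and 343 in controls (log2 fold change -1.30, SE 0.33, adjusted p = 0.109), with no overlap. Signals of Setdb1 B were 1166 and 1317 in exposed embryos with NTD, 1163, 1049 and 1458 in exposed embryos without NTD and 1179 and 1293 in controls (log2 fold change -0.014, SE 0.14, adjusted p = 0.974), and the exposed embryos lay on both sides of the controls. The probe set Setdb1 C was not tested, with 32.1 and 32.2 in exposed embryos with NTD, 22.6, 44.4 and 17.3 in exposed embryos without NTD and 15.4 and 27.8 in controls. Nsd1, an H3K36 methyltransferase whose human gene is mutated in Sotos syndrome, has 1 probe set. Its signals were 79.9 and 57.1 in exposed embryos with NTD, 48.7, 48.1 and 72.8 in exposed embryos without NTD and 145 and 178 in controls (log2 fold change -1.42, SE 0.39, adjusted p = 0.133). The 2 control signals alone put Nsd1 over the filter, so that a difference was built into its selection, and all 5 exposed signals were under the 40th percentile of their arrays.

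**Figure D2:**
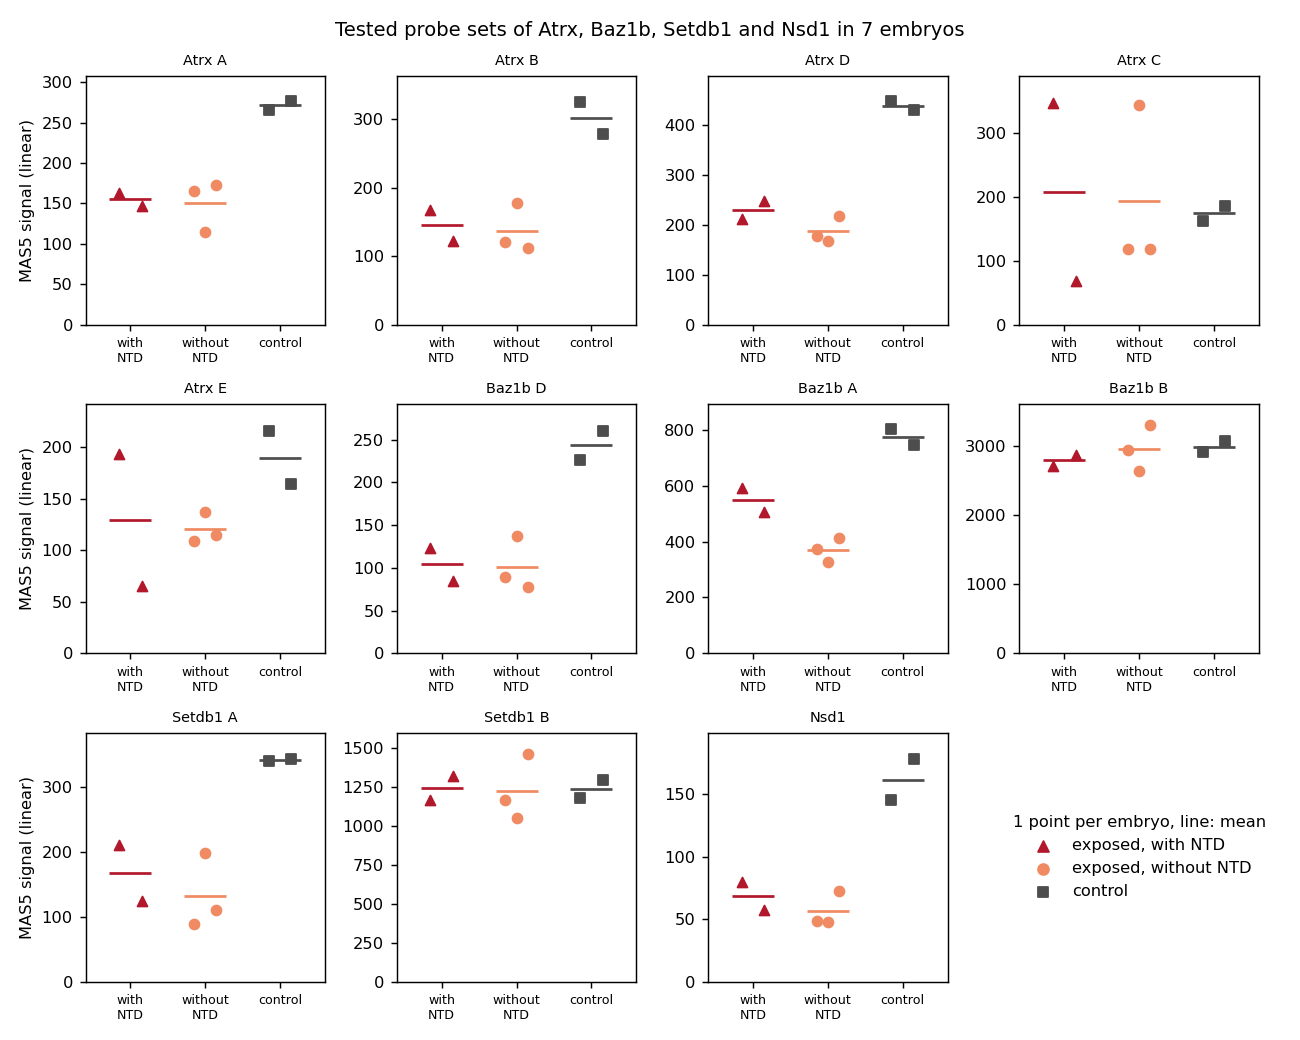
MAS5 signal (y axis, linear, from 0) of the 11 tested probe sets of Atrx, Baz1b, Setdb1 and Nsd1, with 1 point per embryo and a line at each group's mean. In Baz1b B and Setdb1 B the groups overlap, while in Baz1b D and Setdb1 A every exposed embryo is below both controls.

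To show the start regions of genes on the same side of the controls, the 300 bases from 250 before to 50 after the RefSeq start (GRCm38.p6) are given 5′ to 3′ for Atrx, Baz1b, Setdb1 and Smarca5, which have probe sets below the controls, and for Chd8, whose probe set lies above them. Capitals mark the core of the hypoxia response element, ACGTG or GCGTG on either strand, chosen because the study relates maternal diabetes to hypoxia. 
Atrx (chrX:105929323-105929622, minus strand): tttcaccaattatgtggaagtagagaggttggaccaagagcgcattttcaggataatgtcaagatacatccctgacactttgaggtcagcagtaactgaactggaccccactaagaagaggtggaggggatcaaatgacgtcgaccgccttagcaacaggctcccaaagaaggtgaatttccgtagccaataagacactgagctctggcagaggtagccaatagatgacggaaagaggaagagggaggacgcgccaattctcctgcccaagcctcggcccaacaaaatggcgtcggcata
Baz1b (chr5:135187073-135187372, plus strand): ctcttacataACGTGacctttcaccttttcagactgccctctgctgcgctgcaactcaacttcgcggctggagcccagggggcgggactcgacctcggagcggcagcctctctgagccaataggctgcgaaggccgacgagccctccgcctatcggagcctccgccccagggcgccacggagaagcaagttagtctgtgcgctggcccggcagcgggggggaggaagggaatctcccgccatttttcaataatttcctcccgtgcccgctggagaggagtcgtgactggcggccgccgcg
Setdb1 (chr3:95357153-95357452, minus strand): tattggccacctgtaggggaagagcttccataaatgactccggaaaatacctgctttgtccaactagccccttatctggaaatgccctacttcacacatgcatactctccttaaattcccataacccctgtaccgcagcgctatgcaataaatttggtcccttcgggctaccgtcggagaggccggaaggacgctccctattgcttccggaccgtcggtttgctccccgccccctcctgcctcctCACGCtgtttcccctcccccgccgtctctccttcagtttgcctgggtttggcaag
Smarca5 (chr8:80739410-80739709, minus strand): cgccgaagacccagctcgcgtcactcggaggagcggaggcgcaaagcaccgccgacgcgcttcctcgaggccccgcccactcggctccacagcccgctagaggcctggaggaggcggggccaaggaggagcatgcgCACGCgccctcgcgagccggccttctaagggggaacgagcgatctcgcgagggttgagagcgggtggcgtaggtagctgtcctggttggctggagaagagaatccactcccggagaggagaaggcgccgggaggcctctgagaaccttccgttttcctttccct
Chd8 (chr14:52257711-52258010, minus strand): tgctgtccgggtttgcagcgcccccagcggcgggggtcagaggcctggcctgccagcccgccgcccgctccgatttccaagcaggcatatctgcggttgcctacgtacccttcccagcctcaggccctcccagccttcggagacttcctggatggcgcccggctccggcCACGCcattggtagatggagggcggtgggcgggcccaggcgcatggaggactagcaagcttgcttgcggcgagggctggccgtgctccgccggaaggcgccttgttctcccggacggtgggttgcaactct
Baz1b, Setdb1, Smarca5 and Chd8 held 1 match each and Atrx held 0 in this window. The promoter table had 49 start regions for 39 of the 47 genes. A match was present in 34 of them (69.4%), and in 43.8% of all 32851 start regions of that length. The member regions had a median of 28 CpG, against 7 over all regions, and each core contains a CpG. The forkhead (FOXO) sequences GTAAACA or GTAAATA, on either strand, were found in 1 member region (2.04%) and in 6.54% of all. A CACGTG sequence, bound by other factors too, contains the hypoxia core on both strands.

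Both ISWI motors had probe sets below the controls. Smarca1, the X-linked ISWI motor of the NURF complex, has 1 probe set, with 375 and 369.5 in exposed embryos with NTD, 365, 409 and 324 in exposed embryos without NTD and 549 and 521 in controls (log2 fold change -0.54, SE 0.14, adjusted p = 0.109). The spread among exposed embryos was small here, and all of them were below both controls. Smarca5, the widely used ISWI motor that works with Baz1b, has 3 probe sets. Signals of Smarca5 C were 958 and 743 in exposed embryos with NTD, 560.3, 852 and 812 in exposed embryos without NTD and 1361 and 1195 in controls (log2 fold change -0.72, SE 0.19, adjusted p = 0.117), without overlap. Signals of Smarca5 B averaged 2448 ± 315 in exposed embryos and 3036 ± 231 in controls (SD, n = 5 and n = 2), again without overlap (log2 fold change -0.32, SE 0.14, adjusted p = 0.303). In Smarca5 A the groups overlapped, with 783 to 1324 in exposed embryos, against 1028 and 986 in controls (log2 fold change 0.15, SE 0.19, adjusted p = 0.734). Baz2a, the TIP5 subunit of the complex that silences ribosomal DNA, stood on the other side. Its probe set Baz2a C had 888 to 1027 in exposed embryos, against 706 and 814 in controls (log2 fold change 0.32, SE 0.12, adjusted p = 0.25). Baz2a A had a log2 fold change of 0.30 with overlap. It passed the filter on exposed arrays only, so that its selection favoured a higher exposed signal. Baz2b, a related bromodomain protein, had 575 to 681 in exposed embryos, against 673 and 580.3 in controls (log2 fold change -0.053, SE 0.13, adjusted p = 0.881), so its groups overlapped.

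Among the other SNF2 motors, Smarcad1, which keeps silent chromatin through replication, had 416 to 514 in exposed embryos, against 549 and 662 in controls in Smarcad1 A, with no overlap (log2 fold change -0.32, SE 0.14, adjusted p = 0.302). Its second probe set, Smarcad1 B, overlapped, with 1117 to 1751 in exposed embryos, against 1523 and 1578 in controls (log2 fold change -0.18, SE 0.19, adjusted p = 0.677). Smarcal1, an annealing helicase at stalled forks, had 604 to 668 in exposed embryos, against 704 and 709.8 in controls (log2 fold change -0.16, SE 0.12, adjusted p = 0.528). Those groups did not overlap either, though the difference was small. The Ino80 motor, which exchanges histone H2A.Z, gave log2 fold changes of 0.090 and -0.024 (SE 0.15 and 0.25) in Ino80 A and Ino80 B, and both overlapped. Of the 10 tested probe sets of this family, 9 had a log2 fold change below 0, and 5 of those 10 belong to Atrx.

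BAF genes had 14 tested probe sets, of which 3 were lower and 0 higher in exposed embryos at an unadjusted p under 0.05, where 8.52% and 7.63% of all probe sets were. Smarca4, the BRG1 motor that embryos cannot do without, had 3788 to 4763 in exposed embryos, against 3323 and 3743 in controls in Smarca4 A (log2 fold change 0.21, SE 0.12, adjusted p = 0.423). In this probe set all exposed embryos were above both controls, though the difference did not pass the test, and in Smarca4 B the groups overlapped at a log2 fold change of 0.29 (SE 0.23). Smarca2, the alternative BRM motor, had 208 to 258 in exposed embryos, against 272 and 271 in controls in Smarca2 A (log2 fold change -0.26, SE 0.17, adjusted p = 0.464), with the exposed embryos below. In its other probe set, Smarca2 B, they overlapped at -0.13. The subunits lower at an unadjusted p under 0.05 were Smarcc1, Smarcd3 and Smarce1. Smarcc1, the BAF155 scaffold needed for neural tube closure in mice, had 301 and 170.4 in exposed embryos with NTD, 248, 438 and 374 in exposed embryos without NTD and 549 and 483 in controls in Smarcc1 B (log2 fold change -0.82, SE 0.30, adjusted p = 0.223). Its other probe set, Smarcc1 A, pointed the other way, with 1793 to 3114 in exposed embryos, against 2073 and 2156 in controls and a log2 fold change of 0.12 (SE 0.20). Smarcd3, the BAF60c subunit of heart and muscle, had 419 to 552 in exposed embryos, against 587 and 589 in controls (log2 fold change -0.34, SE 0.14, adjusted p = 0.287). Smarce1, the BAF57 subunit, had 1047 to 1391 in exposed embryos, against 1633 and 1483 in controls in Smarce1 A (log2 fold change -0.37, SE 0.14, adjusted p = 0.232), without overlap, and a log2 fold change of -0.29 (SE 0.15) in Smarce1 B, with overlap. Smarcb1, the core SNF5 subunit, overlapped in both probe sets, at -0.0093 and -0.45 (SE 0.11 and 0.42). Smarcd2, the BAF60b subunit, gave -0.18 in Smarcd2 B and 0.29 in Smarcd2 C (SE 0.17 and 0.18), and in Smarcd2 C alone all exposed embryos were above both controls. Smarcd1, the BAF60a subunit, gave 0.021 (SE 0.16) in Smarcd1 B.

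CHD remodellers held the clearest probe sets above the controls. Chd7, the remodeller mutated in human CHARGE syndrome and active in neural crest, had 749.6 and 755 in exposed embryos with NTD, 894, 655 and 975 in exposed embryos without NTD and 453 and 463 in controls. Every exposed embryo exceeded both controls, by 1.76-fold in the mean (log2 fold change 0.80, SE 0.16, adjusted p = 0.0698), with an exact permutation p of 0.0476. Chd8, a regulator of Wnt target genes whose human gene is mutated in autism, had 789.8 and 834 in exposed embryos with NTD, 1107, 1119 and 1164 in exposed embryos without NTD and 625 and 654 in controls. Here too the groups were apart, by 1.57-fold (log2 fold change 0.63, SE 0.18, adjusted p = 0.133). Chd4, the motor of the NuRD complex, overlapped in its 3 probe sets, at -0.31, -0.28 and 0.35 in Chd4 A, Chd4 B and Chd4 C. Chd1, which opens chromatin in pluripotent cells, had 228 to 387 in exposed embryos, against 425 and 412 in controls in Chd1 A (log2 fold change -0.37, SE 0.20, adjusted p = 0.396), where the exposed embryos were below. Its other probe sets, Chd1 B and Chd1 C, overlapped at -0.17 and 0.013. Chd6 gave 0.028 (SE 0.19) and overlapped.

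The H3K4 methyltransferases lay mostly above 0 without a call, with 5 of 6 tested probe sets above 0 and a median log2 fold change of 0.17. Kmt2e, an atypical member that reads rather than writes H3K4 methylation, was the only one at an unadjusted p under 0.05, with 1081 to 1309.6 in exposed embryos, against 947 and 811 in controls in Kmt2e B (log2 fold change 0.39, SE 0.13, adjusted p = 0.19). Its other probe set, Kmt2e A, overlapped and stood at -0.14. Kmt2a, which keeps Hox genes active, gave 0.43 and 0.058 (SE 0.20 and 0.24), and Kmt2c, an enhancer enzyme, 0.14 (SE 0.16), all with overlap. Setd1a, which methylates H3K4 at promoters, had 652 to 786 in exposed embryos, against 589.9 and 650.1 in controls (log2 fold change 0.19, SE 0.13, adjusted p = 0.504), and its groups were apart. Kmt2d, mutated in human Kabuki syndrome, was not tested, since its signals of 30.9 to 49.7 in exposed embryos, against 30.4 and 29.4 in controls, were under the 40th percentile on every array.

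H3K9 methyltransferases other than Setdb1 gave no probe set at an unadjusted p under 0.05. Ehmt2, the G9a enzyme, had 85.5 to 387 in exposed embryos, against 372 and 233 in controls in Ehmt2 A, a wide range with overlap (log2 fold change -0.77, SE 0.46, adjusted p = 0.437), and 1831 to 2559.8 in exposed embryos, against 2031 and 1912 in controls in Ehmt2 B (log2 fold change 0.093, SE 0.14, adjusted p = 0.776). Suv39h2, an enzyme of pericentric heterochromatin, gave -0.34 and -0.11 (SE 0.20 and 0.40). Ezh2, the catalytic subunit of PRC2 that silences developmental genes through H3K27, had 2228 to 3067 in exposed embryos, against 3323 and 2979.7 in controls (log2 fold change -0.23, SE 0.13, adjusted p = 0.409), so that 1 exposed embryo lay above the lower control. Ezh1, its paralogue, had 153 to 268 in exposed embryos, against 162 and 119.7 in controls in Ezh1 B, which overlapped (log2 fold change 0.56, SE 0.24, adjusted p = 0.299), and -0.036 (SE 0.21) in Ezh1 A. The other SET domain genes, Setd3, Setd4 and Setd6, gave 4 tested probe sets with log2 fold changes of -0.13 to 0.47 and none at an unadjusted p under 0.05.

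Lysine demethylases remove methyl groups from histones, and 0 of their 12 tested probe sets were lower in exposed embryos at an unadjusted p under 0.05, where 8.52% of all probe sets were. Kdm3b, an H3K9 demethylase, had 1342 to 1516 in exposed embryos, against 1119.8 and 1194 in controls (log2 fold change 0.30, SE 0.11, adjusted p = 0.232), and all exposed embryos were above both controls. Kdm4b, which acts on H3K9 and H3K36, had 331 to 381 in exposed embryos, against 283 and 297 in controls (log2 fold change 0.27, SE 0.14, adjusted p = 0.357) and was apart too. The others on autosomes lay close to 0 and overlapped. Kdm1a, the LSD1 enzyme, gave -0.095 and -0.0034, Kdm2b, an H3K36 demethylase, 0.095, and the hypoxia-responsive Kdm3a 0.043. The H3K4 demethylases Kdm5a and Kdm5b gave -0.064 for Kdm5a, and 0.033 and 0.071 for Kdm5b.

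In the tested probe sets of X-linked demethylases exposed embryo 2 with NTD was the lowest exposed embryo. Kdm5c, an H3K4 demethylase, had 367 and 195 in exposed embryos with NTD, 459, 358 and 444 in exposed embryos without NTD and 217 and 141 in controls in Kdm5c A (log2 fold change 1.00, SE 0.31, adjusted p = 0.167). It was thus above both controls in 4 exposed embryos and between them in exposed embryo 2 with NTD. Kdm6a, the UTX enzyme that removes H3K27 methylation, had 657 and 259.8 in exposed embryos with NTD, 777, 416 and 524 in exposed embryos without NTD and 401 and 371 in controls in Kdm6a B (log2 fold change 0.35, SE 0.34, adjusted p = 0.644) and 437 and 250.2 in exposed embryos with NTD, 345, 478 and 476 in exposed embryos without NTD and 290.3 and 315 in controls in Kdm6a A (log2 fold change 0.35, SE 0.24, adjusted p = 0.498). In both probe sets of Kdm6a the same 4 exposed embryos were above both controls, and exposed embryo 2 with NTD was below them. Both genes are known to escape X inactivation in mice. Xist, the RNA that coats the inactive X in female cells, had a signal of 7533 and 256 in exposed embryos with NTD, 6074, 6840.3 and 6098 in exposed embryos without NTD and 181 and 165 in controls. The Y-linked Eif2s3y had 0.697 and 245 in exposed embryos with NTD, 0.549, 0.689 and 2.76 in exposed embryos without NTD and 227 and 203 in controls. High Xist with low Eif2s3y was thus found in all exposed embryos but exposed embryo 2 with NTD. That embryo and both controls had low Xist with high Eif2s3y. The labels give no sex, but by these transcripts it nearly coincides with exposure. For all members, the X-linked Atrx and Smarca1 included, sex and exposure can therefore hardly be told apart. The part of these transcripts in any result was not tested. In exposed embryo 2 with NTD, whose Xist and Eif2s3y were near those of the controls, the log2 signal minus the control mean was 0.16 for Kdm5c A. Kdm5c A and the members given next had a small p over all exposed embryos, this one included. The side on which this embryo lay was thus partly set by the choice of members. The same difference was -0.53 for Smarca1, -0.83 for Atrx D, -1.52 for Baz1b D, -1.45 for Setdb1 A, 0.72 for Chd7 and 0.38 for Chd8. In 19 of the 75 tested members that embryo lay on the other side of the control mean from the fold change of the exposed group, with -0.57 for Kdm6a B and -0.27 for Kdm6a A. It was below both controls, with the other 4 exposed embryos above them, in 2 of the 9 tested X-linked members, those of Kdm6a. The same held for 4 of the 66 tested members on autosomes, at -0.34 for Smarca4 B, -0.24 for Chd4 C, -0.18 for Kmt2c and -0.14 for Baz2a A. Neither this pattern nor the side of the control mean was counted over all probe sets of the array. Without that embryo, 11 members were lower (14.7%, against 8% of all) and 10 higher (13.3%, against 6.75%) at an unadjusted p under 0.05.

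**Figure D3:**
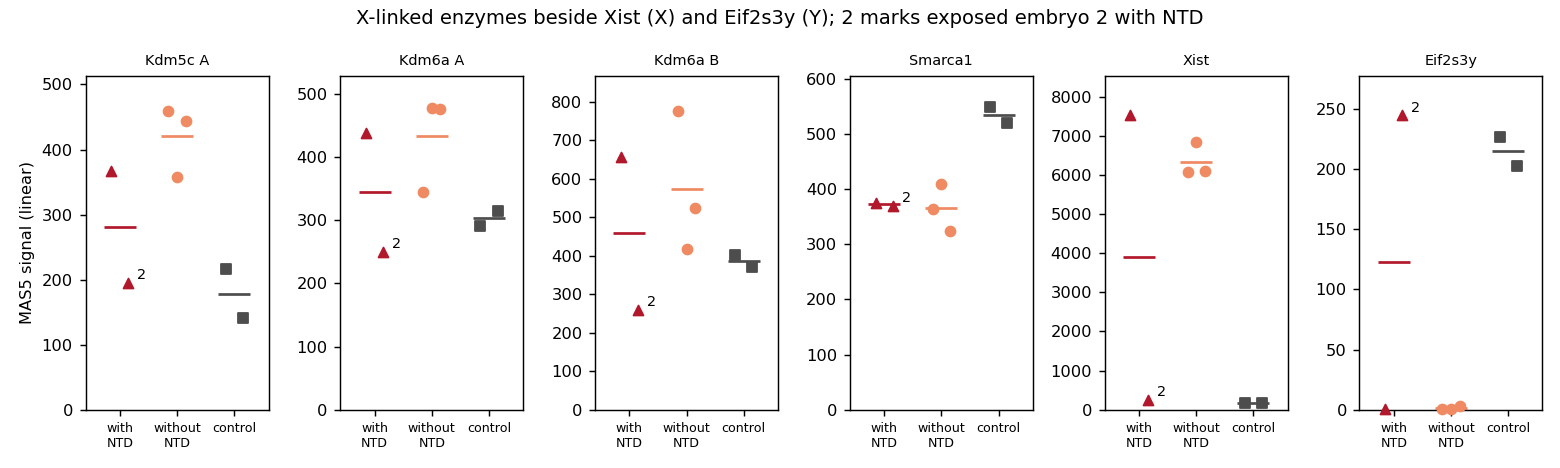
MAS5 signal (y axis, linear, from 0) of 4 probe sets of X-linked members, and of Xist and Eif2s3y, with 1 point per embryo, a line at each group's mean and a 2 beside exposed embryo 2 with NTD. Kdm5c in that embryo is 195 and lies between the controls, whereas Smarca1 lies below both controls in all 5 exposed embryos.

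Probe sets of the same gene did not always differ in the same direction. Of the 24 genes with at least 2 tested probe sets, 14 had all of them on 1 side of 0 and 10 had them on both sides. The distance between the lowest and highest log2 fold change of a gene had a median of 0.40, and was 1.28 for Setdb1, 1.24 for Baz1b, 1.03 for Atrx, 0.94 for Smarcc1, 0.87 for Smarca5 and 0.86 for Ehmt2. At the other end, Kdm6a, Baz2a and Kdm5b had distances of at most 0.039. In Setdb1, Baz1b, Smarcc1 and Ehmt2 the probe set nearest to or above 0 was the one with the highest mean signal of the gene. In Atrx and Smarca5 it was not, since the brightest probe sets, Atrx D and Smarca5 B, stood at -1.12 and -0.32. MAS5 signals of different probe sets depend on their probes, so that this order is one of brightness and not of transcript level. Only the brightest tested probe set was then taken for each of the 44 genes. This choice left 5 lower at an unadjusted p under 0.05 (11.4%), those of Atrx, Nsd1 (over the filter in controls only), Smarca1, Smarca5 and Smarcd3. The same choice left 7 higher (15.9%), those of Baz2a, Chd7, Chd8, Ezh1, Kdm3b, Kdm5c and Kmt2e, and moved the median log2 fold change to 0.025. The array-wide shares stayed at 8.52% and 7.63%, since they were taken over all probe sets. Split at the median signal of all tested probe sets (445), 8 of 37 dimmer members were lower (21.6%, against 9.08% of all dimmer probe sets) and 6 of 38 brighter ones (15.8%, against 7.96%). The dimmer members had 2 higher (5.41%, against 6.93%) and the brighter ones 5 (13.2%, against 8.34%).

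**Figure D4:**
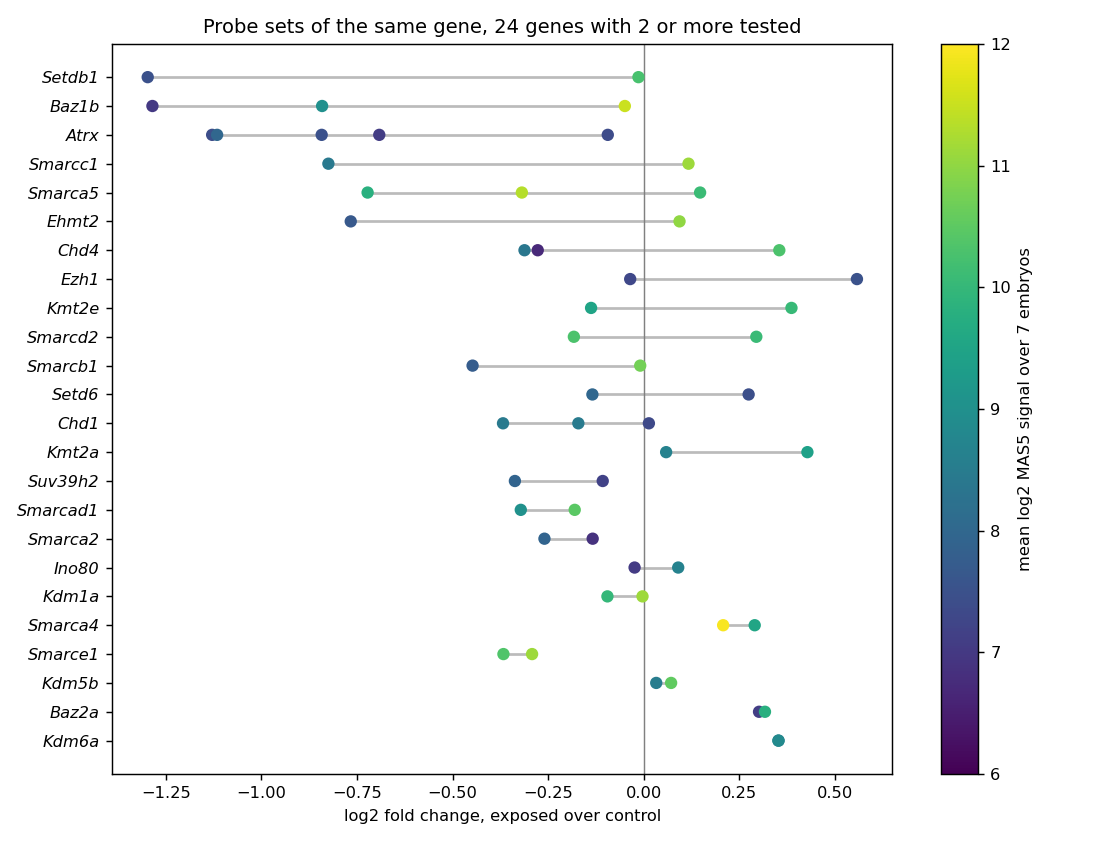
Log2 fold change of exposed over control embryos (x axis) for each tested probe set of the 24 genes that have several, 1 gene per row, coloured by the mean log2 signal over the 7 embryos. Setdb1, with a distance of 1.28 between its probe sets, is at the top and Kdm6a at the bottom.

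Partners of these enzymes were read from 8 lists of complex subunits, reader proteins and other methylation enzymes, with 159 tested probe sets of 93 genes. None passed an adjusted p of 0.05 in limma, while 13 were lower and 10 higher at an unadjusted p under 0.05, and the median log2 fold change was -0.0047. Bcl11a, a zinc finger protein of neural BAF complexes, averaged 263 in exposed embryos and 495 in controls in the probe set of smallest p (log2 fold change -0.92, adjusted p = 0.0619). Another of its probe sets was at -1.29 (adjusted p = 0.109). The study listed Bcl11a too from the same embryos, so that its direction here is not independent evidence. Both probe sets are among the 3 lower ones of the BAF and PBAF list. Rbbp4, a histone chaperone shared by NuRD, PRC2 and NURF, averaged 1899 in exposed embryos and 3142 in controls (log2 fold change -0.74, adjusted p = 0.0659). Pole3, a histone-fold protein of the CHRAC complex, averaged 574 in exposed embryos and 969 in controls (log2 fold change -0.76, adjusted p = 0.0619), and Kmt5b, an H4K20 methyltransferase, 288 in exposed embryos and 565 in controls in the probe set of smallest p (log2 fold change -0.99, adjusted p = 0.0619). On the PRC2 list 3 of 19 probe sets were lower and 0 higher, those of Suz12, Jarid2 and Rbbp4. On the heterochromatin list, of proteins that bind or maintain methylated histones and DNA, 0 of 24 probe sets were lower and 5 were higher at an unadjusted p under 0.05. They were 2 probe sets of the maintenance DNA methyltransferase Dnmt1, at log2 fold changes of 0.29 and 0.73, and 1 each of Dnmt3b, Cbx1 and Wiz. The remaining lists had 3 of 22 lower and 0 higher for BAF and PBAF, 1 of 19 lower and 1 higher for NuRD, 2 of 12 lower and 0 higher for ISWI, 1 of 22 lower and 1 higher for INO80 and SRCAP, 2 of 20 lower and 0 higher for COMPASS, and 3 of 31 lower and 3 higher for other methylation enzymes. The array-wide shares to set beside these are 8.52% lower and 7.63% higher.

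Exposed embryos with NTD were compared with exposed embryos without NTD in a fit of the 3 groups, to ask whether these enzymes differ with the defect. No member passed an adjusted p of 0.05 in limma, and 0% of all probe sets did. At an unadjusted p under 0.05, 3 members were lower in embryos with NTD (Chd4, Chd8 and Smarcd1; 4%, where 1.38% of all probe sets were) and 2 were higher (Baz1b and Smarcd2; 2.67%, where 1.64% were). Both embryos with NTD lay below all 3 without NTD for 6 members (8%, against 8.49%) and above them for 4 (5.33%, against 7.58%). Chd8 averaged 812 in embryos with NTD and 1130.2 in those without (log2 fold change -0.48, SE 0.13, adjusted p = 0.999), and both values were above the control mean of 639. Baz1b A averaged 549 in embryos with NTD and 371 in those without (log2 fold change 0.57, SE 0.16, adjusted p = 0.999), while Baz1b D of the same gene stood at 0.063 and Baz1b B at -0.079. Smarcd1 B had 824 and 743 in exposed embryos with NTD, 980.5, 971 and 1099 in exposed embryos without NTD and 897 and 906 in controls (log2 fold change -0.38, SE 0.14, adjusted p = 0.999), with the controls between the 2 exposed groups. Chd4 C averaged 1096 with NTD and 1607 without, with overlap (log2 fold change -0.55, SE 0.22, adjusted p = 0.999). Chd4 A and Chd4 B of the same gene stood at -0.059 and 0.10. Smarcd2 B averaged 1434 with NTD and 1104 without (log2 fold change 0.37, SE 0.15, adjusted p = 0.999), while Smarcd2 C pointed the other way at -0.26. Without exposed embryo 1, 2 or 3 without NTD, lower members numbered 4, 6 and 1 (5.33%, 8% and 1.33%, against 1.11%, 3.83% and 1.92% of all). Higher members numbered 2, 4 and 4 (2.67%, 5.33% and 5.33%, against 1.37%, 5.57% and 2.59%). Without exposed embryo 1 with NTD, only embryo 2 with NTD is left in that group, and no count is given for that fit. This lone embryo is assumed to vary like the other groups. Its Xist and Eif2s3y were near those of the controls, unlike those of the 3 embryos without NTD. In that fit the defect and these transcripts cannot be told apart.

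**Figure D5:**
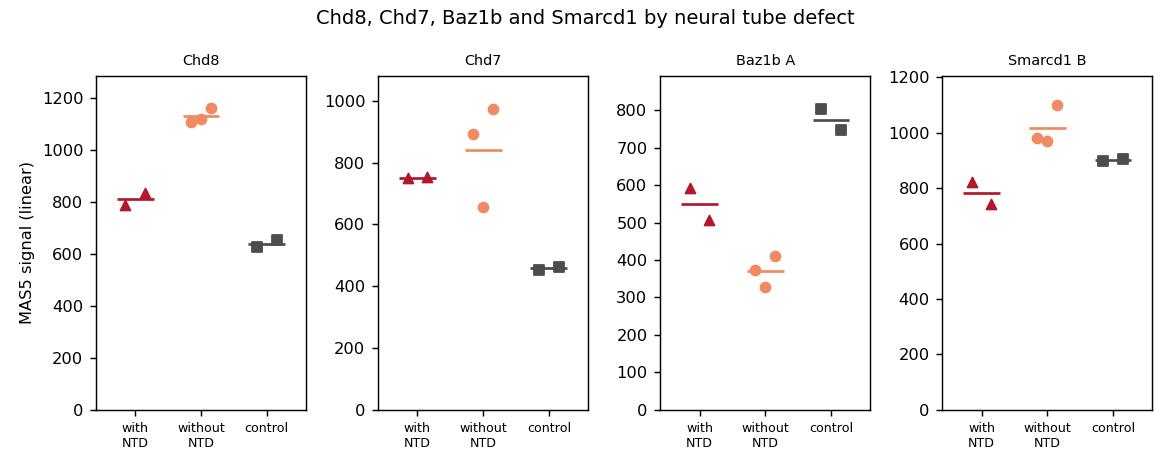
MAS5 signal (y axis, linear, from 0) of Chd8, Chd7, Baz1b A and Smarcd1, with 1 point per embryo and a line at each group's mean. Chd8 averages 812 in exposed embryos with NTD, 1130.2 in those without and 639 in controls.

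Marker signals of some tissues differed between the groups as well. Summed signals of 10 neural progenitor and neuron markers, all above the filter, were 8923 to 10940.4 in exposed embryos and 12393 to 12519 in controls. Of these 10, Fabp7, Stmn2, Dcx and Map2 were lower in all exposed embryos, and the other 6 overlapped. Those of 7 red blood cell markers were 64507 to 83780 in exposed embryos and 52083 to 54392 in controls, and those of 6 heart markers 9505 to 11508 in exposed embryos and 8854 to 9162 in controls. The groups were apart in 6 of the 7 red blood cell markers and in 1 of the 6 heart markers (Myh7). Somite and skeletal muscle markers summed to 1986 to 2353 in exposed embryos and 1771 to 1803 in controls, with Meox1 higher and Myog lower in all exposed embryos and the other 4 overlapping. Yolk sac and liver markers summed to 1614 to 25147 in exposed embryos and 3486 to 4150 in controls. Alb was lower in all exposed embryos and the other 10 overlapped. Afp, the brightest of them, was 2349 and 1500 in controls. It was 507 to 1494 in the other exposed embryos and 6626 in exposed embryo 1 without NTD, which had the highest sum. Without that embryo 11 members were lower (14.7%, against 8.82% of all) and 6 higher (8%, against 7.88%) at an unadjusted p under 0.05. The part of tissue make-up in the member signals was not tested, and in whole embryos fewer cells that express a gene and less RNA per cell cannot be told apart.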

How the data were processed

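Whole-embryo RNA of 7 FVB embryos was measured on 1-colour arrays. The deposited values are linear intensities, computed by the authors with MAS5 and scaled on each array to a trimmed mean of 500.2. The sources used here do not give the MAS5 version. Signals below 1 were set to 1 and taken to log2. Probe sets that reached the 40th percentile of an array on at least 2 arrays were fitted with limma 3.58.1 (trend of spread with signal) in R 4.3.3, with p-values adjusted by Benjamini-Hochberg over all 14554. A fit of the 3 groups gave the contrast by NTD. Single probe sets had an exact permutation test over embryos. The 64 control probe sets were left out. Symbols came from the array annotation. The members and lists were chosen with earlier results of these data known.

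Signals in every embryo are given for the probe sets of Atrx, Baz1b, Nsd1 and Setdb1, members with an unadjusted p under 0.01, the brightest probe set of each X-linked member and the 3 members of smallest p by NTD. A few others were chosen after their values were seen. Promoters came from RefSeq (GRCm38.p6). Alternatives were other normalizations, floors, filters and fits, a t-test, and each embryo left out. The t-test was Welch's on the filtered log2 signals, called the methods' t-test here since the study's methods name Welch's test. The limma step was tested on simulated data. Statmod 1.5.0 and Python with Matplotlib were also used. Lettered probe sets of the genes given in every embryo were, for Atrx, A 1420945_at, B 1420946_at, C 1420947_at, D 1420948_s_at, E 1450051_at; for Baz1b, A 1420975_at, B 1434824_at, C 1437420_at, D 1450068_at; for Setdb1, A 1416670_at, B 1451833_a_at, C 1458215_at; for Smarca5, A 1424205_at, B 1424206_at, C 1424207_at; for Kdm5c, A 1426497_at, B 1426498_at; and for Kdm6a, A 1427235_at, B 1427672_a_at. Nsd1 has 1420881_at, Smarca1 1460292_a_at, Chd7 1448026_at and Chd8 1437297_at.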

Additional observations from a re-analysis of the deposited data

Results flagged for a closer look

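Among the 22 probe sets with signals given in every embryo, and the median of all members, 1 of 23 values had an embryo far from the other exposed embryos. Kdm5c A had a signal of 195 in exposed embryo 2 with NTD, against 358 to 459 in the other 4 exposed embryos. The gap to the nearest of them was, on log2 signals, 0.71 of the whole range, at the critical value of 0.71, and chance alone marks about 1 group in 20. Xist in the same embryo was 256, against 6074 to 7533 in the other exposed embryos, and its part in the Kdm5c signal was not tested.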

How the results depend on the processing

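No member was called in the main fit or with quantile normalization, median centring, a floor of 32, no filter, no trend, the methods' t-test or any embryo left out. An offset of 50 and the stricter filter called 1 each in limma (Atrx D, adjusted p = 0.0409 and 0.0391). Of all probe sets they called 50 of 14554 and 21 of 11856. Array weights called 9, where 491 of all probe sets were called, against 25 in the main fit. Members lower at an unadjusted p under 0.05 numbered 14 (18.7%, against 8.52% of all). There were 8 with the stricter filter, which tested 55 (14.5%, against 8.57%), and 5 with 1 probe set a gene (11.4%, against 8.52%). With 1 exposed embryo left out they numbered 11 to 15 (14.7% to 20%, against 8% to 8.82%). Members higher numbered 7 (9.33%, against 7.63%), and 6 to 10 with 1 exposed embryo left out (8% to 13.3%, against 6.75% to 7.88%). The methods' t-test gave 14 lower (18.7%, against 10.5% of all) and 5 higher (6.67%, against 7.68%). After adjustment it called 0 members and 0 of all probe sets. It used the filter and adjustment of the main fit. The study filtered on present or marginal flags and fold change and also required Cyber-T, so that its own procedure was not rerun. With both embryos with NTD left out, 14 were lower (18.7%, against 8.05%) and 9 higher (12%, against 6.86%). The median log2 fold change of -0.050 became 0.025 with 1 probe set a gene, and -0.035 and -0.028 without control 1 and control 2. Between embryos with and without NTD, lower members numbered 1 to 6 with 1 embryo without NTD left out (1.33% to 8%, against 1.11% to 3.83%). Higher members then numbered 2 to 4 (2.67% to 5.33%, against 1.37% to 5.57%). With 1 probe set a gene, 3 were lower (6.82%, against 1.38%) and 1 higher (2.27%, against 1.64%).

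Replicate numbers in the labels did not pair the embryos, since deviations of same-numbered embryos correlated at -0.25 to 0.03. With the number as a replicate block, no member was called, and 0 of all probe sets were. In that fit 10 members were lower (13.3%, against 7.39% of all) and 6 higher (8%, against 6.44%). Of the 20 tested probe sets with signals given in every embryo, 3 changed sign, each near 0. Atrx C became 0.019 with the replicate block and ranged from -0.37 to 0.22 over all settings. Setdb1 B ranged from -0.080 to 0.052 with 1 embryo left out. Smarcd1 B became -0.039 with array weights and -0.045 with the replicate block, and ranged from -0.045 to 0.096 with 1 embryo left out. The cause of these shifts was not tested. Without a control or without an embryo with NTD, 1 embryo is left in its group and is assumed to vary like the others.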
